A study of Homo sapiens with 9 samples.

Results

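The matrix metalloproteinases MMP1, MMP2, MMP3, MMP9, MMP14 and MMP16 and the tissue inhibitors TIMP1, TIMP2, TIMP3 and TIMP4 were followed across every array of a study of A673, a human Ewing tumour line with the EWS/FLI translocation. The members were taken as all probe sets whose array annotation names one of these 10 genes and no other, which gave 19 of the 22283 probe sets measured. MMP14, MMP16 and TIMP3 had 4 probe sets each and the other 7 genes had 1 each. Of the 19, 17 had a mean signal over the filter on low values (53.3) and were tested, and the 2 left out were probe sets of MMP16.

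RNA from 9 samples of this line was hybridised to 1 U133A array each. EZH2 siRNA no.2 was on 2 arrays, a further EZH2 siRNA whose title carries no number (the unnumbered EZH2 siRNA) on 1, and the control siRNA on 2, all at 5 nM for 48 hours with a transfection reagent. The histone deacetylase inhibitor trichostatin A (TSA) was given at 100 nM for 24 hours (2 arrays), and its solvent DMSO at 0.01% for 24 hours (2 arrays). EZH2 methylates histone H3 as the enzyme of a Polycomb complex, and the study asked what it does in Ewing tumours. All arrays came from 1 cell line, no untreated cells were measured here, and the 2 kinds of control differ in time and in transfection at once.

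Matrix metalloproteinases are zinc enzymes that cut collagens and other proteins outside the cell. They are made as inactive precursors, some are anchored in the cell membrane and activate others, and TIMPs bind the active enzymes and block them. The balance of the proteases and their inhibitors is known to bear on tumour invasion. Several MMP genes and TIMP1 are textbook targets of the transcription factor AP-1, and TIMP3 is known as a gene whose CpG-rich promoter is silenced in many tumours.

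EZH2 itself had signals of 572 and 270.6 with EZH2 siRNA no.2 and 681 with the unnumbered EZH2 siRNA, against 1130.1 and 1172 with the control siRNA. The mean with siRNA no.2 was 36.6% of the control, with a log2 difference of -1.48 (SE 0.32, limma adjusted p = 0.920 over all tested probe sets). In TSA, EZH2 stood at 1257 and 1055, against 990.1 and 861 in DMSO. The median signal of an array was 125 to 159, and its mean without the lowest and highest values was 499.9 on every array. The hybridisation control probe sets, which report RNA spiked in after labelling, set the 4 arrays of replicate 2 (mean log2 10.43 to 10.53) apart from the other 5 (9.80 to 10.16), so within-replicate values stand beside the results below. Nothing in the labels says what a replicate number shares. Of the Ewing markers, 6 were on the array as single-gene probe sets and all 6 passed the filter, among them CD99 with signals of 14840 to 19651. PTPRC and CD14 of leukocytes, CDH5, VWF and TEK of endothelium and EPCAM, CDH1 and KRT19 of epithelium lay under the filter, while KRT18, KRT8, CD3E, ITGAM, PECAM1 and 4 of the 5 fibroblast markers lay over it. Signals rank arrays within a probe set and are not compared between probe sets.

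MMP1, the interstitial collagenase, had the widest spread of arrays within a group among the members, and its high arrays all carried replicate number 2. Its signals were 1383 (replicate 1) and 9619.9 (replicate 2) with EZH2 siRNA no.2 and 1639 with the unnumbered EZH2 siRNA, against 1315 and 1324 with the control siRNA. In TSA they were 1578 (replicate 1) and 8407 (replicate 2), against 1026 and 6365 in DMSO. Of the 9 arrays, 3 were thus high, namely replicate 2 with siRNA no.2, in TSA and in DMSO, and the control siRNA array of replicate 2 stood with the low ones. Replicate 2 was 6.96 times replicate 1 with siRNA no.2, 5.33 times in TSA and 6.20 times in DMSO, and 1.01 times with the control siRNA.

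Among the 13665 tested probe sets, MMP1 was the 3rd highest by that log2 difference within siRNA no.2, the 4th in TSA and the 2nd in DMSO. The control siRNA had 7668 probe sets at least as high. No other tested probe set reached the smallest of the first 3 differences (2.40 on the log2 scale) in siRNA no.2, TSA and DMSO alike. Of all tested probe sets, 36 were at least 2-fold higher in replicate 2 in those 3 groups, and 20 of them were so with the control siRNA too.

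With the replicate number as a term beside the 4 numbered groups, a comparison added after the split in MMP1 was seen and so no independent support for it, MMP1 was higher in replicate 2 by 1.95 on the log2 scale (SE 0.37, limma adjusted p = 0.0318, rank 99 by p of 13665). Without control siRNA replicate 2, the array that lacks the split, the difference was 2.59, given as a description since that array was singled out by its MMP1 value. The call was lost without any 1 of the siRNA no.2, TSA or DMSO arrays, with log2 differences of 1.67 to 1.80 and adjusted p of 0.0703 to 0.165. It was also lost with no filter on low values (adjusted p = 0.136). In that comparison 0.768% of the tested probe sets passed upward and 0.688% downward, and MMP1 was the only member of 17 that passed.

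The treatment comparisons of MMP1 had wide intervals. The log2 difference was 1.45 for EZH2 siRNA no.2 against the control siRNA (SE 0.98, limma adjusted p = 0.928), and it was 0.07 within replicate 1 and 2.84 within replicate 2. For TSA against DMSO it was 0.50 (SE 0.98, limma adjusted p = 1.00), with 0.61 within replicate 1 and 0.40 within replicate 2. For DMSO against the control siRNA it was 0.95, with -0.35 and 2.24 by replicate number, and for the unnumbered EZH2 siRNA 0.31 (SE 1.20). The difference between the siRNA no.2 effect and the TSA effect was 0.95 (SE 1.39). TSA was above DMSO within both replicate numbers, while the siRNA no.2 difference lay in replicate 2, where the control siRNA array lacks the high signal seen in the other 3 groups. Leaving out 1 array moved the siRNA no.2 value between 0.07 and 2.84, the values with only its replicate 1 array and only its replicate 2 array. The same omissions gave -0.80 (without DMSO replicate 1) to 1.81 (without DMSO replicate 2) for TSA.

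**Figure D1:**
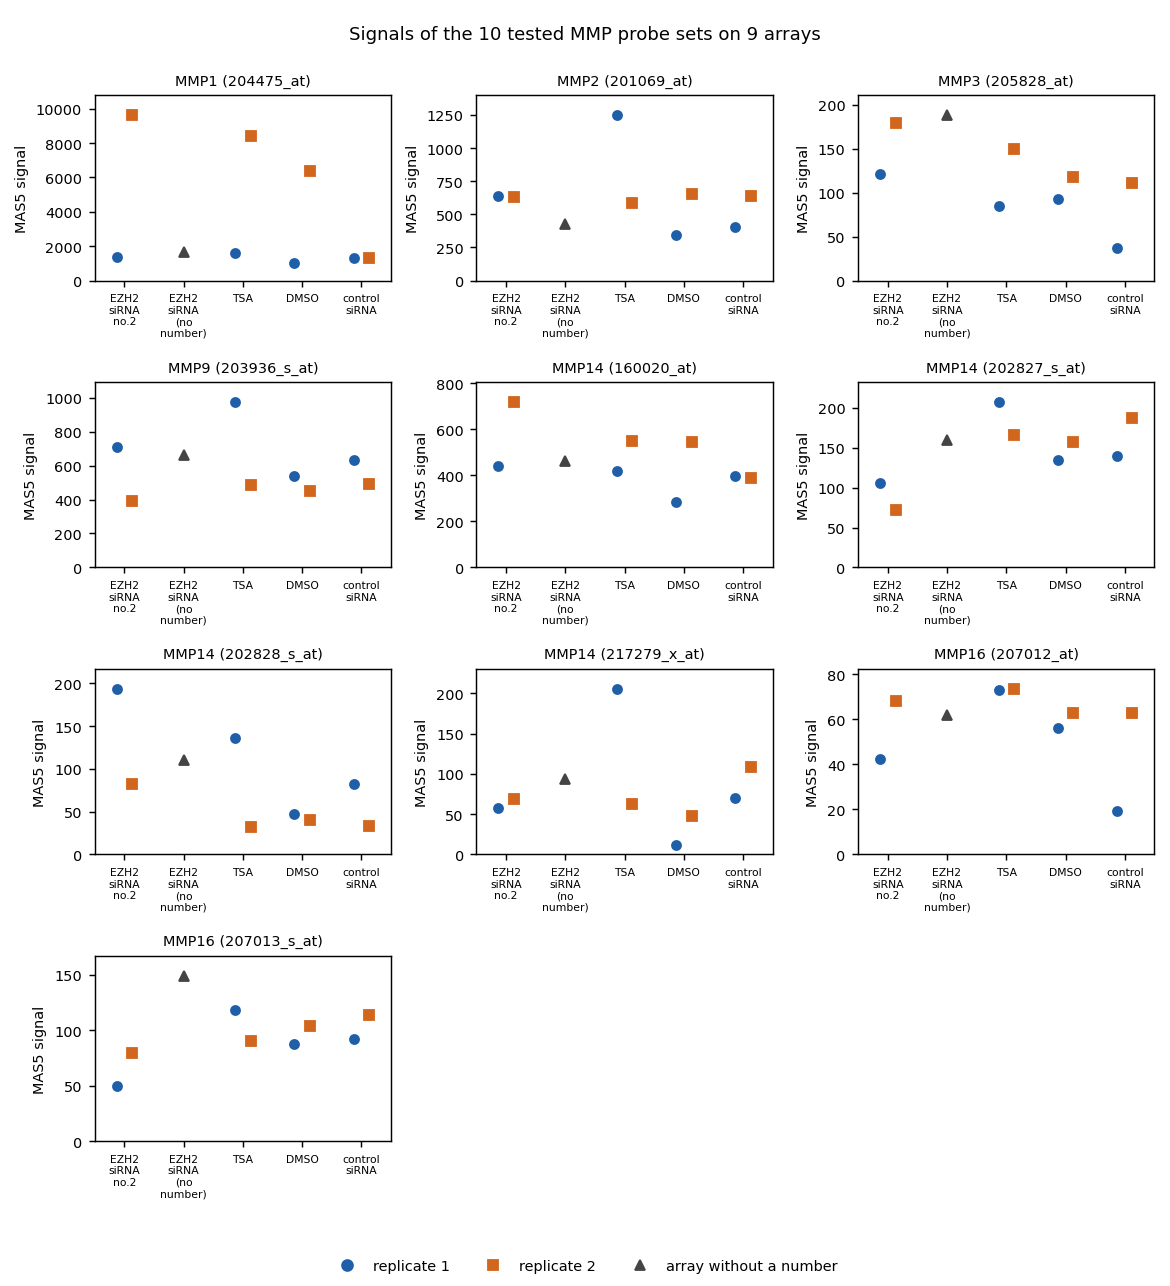
MAS5 signal (linear axis from 0) of the 10 tested MMP probe sets on each of the 9 arrays, by group, with circles for replicate 1, squares for replicate 2 and a triangle for the array without a number. MMP1 stands at 6365 to 9619.9 on 3 replicate 2 arrays and at 1026 to 1639 on the other 6.

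MMP3, stromelysin-1, a protease of broad range that can activate MMP1, had low signals that stood higher with the EZH2 siRNAs. They were 121 and 180 (replicates 1 and 2) with EZH2 siRNA no.2 and 188 with the unnumbered EZH2 siRNA, against 36.9 and 111 with the control siRNA. All 3 EZH2 siRNA arrays lay above both control siRNA arrays, by 0.92 on the log2 scale for siRNA no.2 (SE 0.43, limma adjusted p = 0.920) and 1.22 for the unnumbered siRNA (SE 0.53, limma adjusted p = 0.952). The siRNA no.2 difference was 1.24 within replicate 1 and 0.59 within replicate 2, and 0.35 without control siRNA replicate 1. TSA gave 84.8 and 150.1, against 92.6 and 118 in DMSO, and these groups overlapped. MMP3 was higher in replicate 2 in each of the 4 numbered groups, by 0.64 on the log2 scale (SE 0.22, limma adjusted p = 0.168). For MMP1 the difference was near 0 (0.01) with the control siRNA.

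MMP1 and MMP3 lie in a run of 9 MMP genes with no other protein-coding gene between them on chromosome 11 of GRCh38, and all 9 genes had 1 probe set each, 7 of them over the filter. MMP10, stromelysin-2, had signals of 92.2 and 186 (replicates 1 and 2) with EZH2 siRNA no.2 and 86.2 with the unnumbered siRNA, against 68.2 and 60.3 with the control siRNA. In TSA it had 146 and 163, against 94.1 and 104 in DMSO. MMP8, neutrophil collagenase, had 76.6 and 108 with siRNA no.2 and 35.4 with the unnumbered siRNA, against 29.6 and 50.1 with the control siRNA, and 9.14 and 66.7 in TSA, against 60.6 and 82.0 in DMSO. Replicate 2 was above replicate 1 in all 4 groups for MMP1, MMP3, MMP8 and MMP27, so 4 of the 7 tested genes of the run, where 15.3% of all tested probe sets were so. This count includes MMP1, for which the run was chosen, and differences near 0. On the log2 scale these were 0.01 for MMP1 with the control siRNA, and for MMP27 0.02 there and 0.04 in TSA. None of the neighbours had a split near that of MMP1, with replicate differences of 0.09 for MMP7 to 0.65 for MMP8 on the log2 scale. MMP13, collagenase-3, and MMP20, enamelysin, lay under the filter with signals of at most 28.8 and 32.2. This run was looked at after the values of MMP1 were known.

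The gelatinases cut denatured collagen and the type IV collagen of basement membranes. MMP2, gelatinase A, had signals of 641 and 632 (replicates 1 and 2) with EZH2 siRNA no.2 and 425 with the unnumbered siRNA, against 401 and 638 with the control siRNA. In TSA it had 1248 and 585, against 342 and 653 in DMSO. TSA was thus well above DMSO in replicate 1 and slightly under it in replicate 2, and the TSA replicate 1 array was the highest of all 9. MMP9, gelatinase B, also had its highest signal there, with 975 and 484 in TSA, against 537 and 450 in DMSO. With the siRNAs MMP9 had 712 and 393 (no.2) and 665 (unnumbered), against 630 and 491 with the control. Groups overlapped for both genes in the comparisons with 2 arrays on each side.

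On that TSA replicate 1 array the summed signal of the 5 fibroblast markers was also the highest, at 13808 on TSA replicate 1 and 5542 on TSA replicate 2, against 8897 and 7968 in DMSO. Most of it was COL1A2, whose highest signal was 12305, and LUM, with at most 65.1, lay under the filter. The sum was 6704 and 6812 with siRNA no.2 and 6248 with the unnumbered siRNA, against 5441 and 6456 with the control siRNA. Whether MMP2 and MMP9 go with this sum was not tested. All samples are labelled as the A673 line, and COL1A2 had a signal of at least 4262 on every array. The sum adds signals and does not count cells. A higher share of some cells and more RNA per cell cannot be told apart in these bulk samples.

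MMP14, a membrane-anchored protease that activates the MMP2 precursor, was read by 4 probe sets that did not give one direction. Probe set 160020_at had signals of 441 and 718 (replicates 1 and 2) with EZH2 siRNA no.2, against 396 and 388 with the control siRNA (log2 0.50, SE 0.35). Probe set 202828_s_at had 194 and 82.5 with siRNA no.2, against 81.9 and 32.6 with the control (log2 0.96, SE 0.55). Both thus stood higher with siRNA no.2, without overlap. Probe set 202827_s_at stood lower, at 106 and 72.3 with siRNA no.2, against 139.7 and 187 with the control (log2 -0.73, SE 0.32, limma adjusted p = 0.920). Probe set 217279_x_at, at 57.3 and 68.4 against 69.7 and 109, was lower as well (log2 -0.36, SE 0.52). The 4 probe sets therefore split 2 higher and 2 lower for the same gene, and no direction can be given for MMP14 with siRNA no.2. The unnumbered siRNA array lay above both control arrays on 160020_at (461) and 202828_s_at (110). It lay between them on 202827_s_at (159) and 217279_x_at (94.0). The suffixes _s_at and _x_at mark probe sets that can also bind other transcripts.

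In TSA the same 4 probe sets all had positive differences from DMSO. The largest was 217279_x_at, with 206 (replicate 1) and 62.1 (replicate 2) in TSA, against 11.5 and 47.4 in DMSO (log2 1.46, SE 0.52, limma adjusted p = 1.00). This difference was 2.65 within replicate 1 and 0.27 within replicate 2, and it was 0.76 without TSA replicate 1. DMSO was itself low for this probe set, at -1.13 against the control siRNA (SE 0.52), and the 2 comparisons share the DMSO arrays. Probe set 202827_s_at had 207 and 166 in TSA, against 135 and 157 in DMSO (log2 0.30, SE 0.32). TSA and DMSO overlapped on 160020_at and 202828_s_at. The difference was 0.52 within replicate 1 and 0.009 within replicate 2 for 160020_at, and 1.17 and -0.18 for 202828_s_at. The siRNA no.2 effect minus the TSA effect was -1.82 for 217279_x_at (SE 0.73) and -1.03 for 202827_s_at (SE 0.45), with a limma adjusted p = 1.00 for both. Upward and downward, 1.11% and 0.6% of all tested probe sets had an unadjusted limma p under 0.05 for this difference of effects, and among the 17 members 0 were upward and 2 downward.

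MMP16, a further membrane-type protease, had 2 tested probe sets. Probe set 207013_s_at read 49.7 and 79.5 with EZH2 siRNA no.2 and 149 with the unnumbered siRNA, against 91.6 and 114 with the control (log2 -0.52 for siRNA no.2, SE 0.35). On this probe set the 2 EZH2 siRNAs thus lay on opposite sides of the control. The other, 207012_at, had 42.4 and 68.1 with siRNA no.2 and 62.0 with the unnumbered siRNA, against 19.0 and 62.7 with the control. Its mean was higher with siRNA no.2 (55.2 against 40.8), with overlap, so no direction can be given for MMP16 there. Probe set 207012_at had 72.8 and 73.4 in TSA, against 55.8 and 62.6 in DMSO (log2 0.22, SE 0.44). For 207013_s_at the signals were 118 and 89.8 in TSA, against 87.8 and 104 in DMSO, and these groups overlapped. The probe sets under the filter, 208166_at and 208167_s_at, had signals of 2.28 to 18.9 and 18.2 to 48.6 over the 9 arrays.

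Upstream sequences were at hand for 4 of the 10 members in the RefSeq promoter table (GRCh38.p14), namely TIMP1, TIMP3, TIMP4 and MMP14. They are shown for the 3 inhibitors as the 250 bases before the annotated start of each gene, 5′ to 3′ on the gene's strand, since these windows differ in base composition and both kinds of treatment aim at enzymes that act on chromatin. Capitals mark matches on either strand to the GC box GGGCGG and to TGAGTAA, a variant of the AP-1 site.
TIMP1 (chrX:47582186-47582435, plus strand): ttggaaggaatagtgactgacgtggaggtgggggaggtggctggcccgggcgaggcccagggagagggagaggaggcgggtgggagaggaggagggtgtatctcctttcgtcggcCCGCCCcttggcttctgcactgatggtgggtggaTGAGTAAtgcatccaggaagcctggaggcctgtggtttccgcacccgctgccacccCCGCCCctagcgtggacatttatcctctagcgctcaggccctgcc
TIMP3 (chr22:32801455-32801704, plus strand): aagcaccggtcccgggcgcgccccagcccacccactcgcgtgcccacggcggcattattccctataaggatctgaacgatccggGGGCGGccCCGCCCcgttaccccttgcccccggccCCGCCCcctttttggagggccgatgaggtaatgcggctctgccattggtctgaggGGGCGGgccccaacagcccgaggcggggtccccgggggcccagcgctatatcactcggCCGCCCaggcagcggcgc
TIMP4 (chr3:12158913-12159162, minus strand): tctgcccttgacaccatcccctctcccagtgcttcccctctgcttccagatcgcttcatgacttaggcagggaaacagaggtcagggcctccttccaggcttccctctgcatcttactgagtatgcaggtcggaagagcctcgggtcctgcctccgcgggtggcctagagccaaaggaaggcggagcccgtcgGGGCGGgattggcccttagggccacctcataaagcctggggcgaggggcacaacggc

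The TIMP3 window holds 26 CpG pairs, against 12 in TIMP1, 11 in TIMP4 and 7 in MMP14, and 19.6% of the 35116 promoter windows of this length hold as many or more. GC boxes number 5 in TIMP3, 2 in TIMP1 and 1 each in TIMP4 and MMP14, and 42.6% of all windows hold at least 1. TGAGTAA occurs once, in TIMP1, starting 101 bases before the gene, and 2.21% of all windows hold it. The AP-1 consensus TGANTCA (in 6.57% of windows), the TATA box TATAAA (10.7%) and a run of 3 GGAA units (0.0712%), a kind of repeat that EWS/FLI is known to bind, had no match in these 4 windows. These letter matches are descriptions and not binding sites.

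TIMP1, an inhibitor of most secreted MMPs, had its 2 highest signals on the replicate 1 arrays of DMSO and the control siRNA. Its signals were 6619 and 6551 (replicates 1 and 2) with EZH2 siRNA no.2 and 7404 with the unnumbered EZH2 siRNA, against 11104 and 6779 with the control siRNA. In TSA they were 6955 and 6509.9, against 9352 and 6194 in DMSO. Both siRNA no.2 arrays lay below both control arrays (log2 -0.40, SE 0.28, limma adjusted p = 0.929), but the difference was -0.74 within replicate 1 and -0.05 within replicate 2. Without control siRNA replicate 1 it was -0.04.

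TIMP2, which both inhibits MMP2 and takes part in its activation by MMP14, had overlapping groups in the comparisons with 2 arrays on each side, and the unnumbered siRNA array lay below both control siRNA arrays. Its signals were 240.0 and 290.3 with siRNA no.2 and 205 with the unnumbered siRNA, against 211 and 403 with the control siRNA, and 409.6 and 184 in TSA, against 375 and 276 in DMSO.

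TIMP3, an inhibitor that binds to the extracellular matrix, had a lower mean with EZH2 siRNA no.2 on each of its 4 probe sets. On 201148_s_at the log2 difference was -0.81 within replicate 1 and 0.32 within replicate 2, and the other probe sets were negative within both. Only 1 probe set had no overlap between groups. That probe set, 201150_s_at, had signals of 166 and 80.1 (replicates 1 and 2) with siRNA no.2 and 237 with the unnumbered siRNA, against 219 and 188 with the control siRNA. The log2 difference for siRNA no.2 was -0.69 (SE 0.38, limma adjusted p = 0.924), with -0.36 within replicate 1 and -1.02 within replicate 2, and the fit with only the replicate 1 array of siRNA no.2 gave -0.26. The unnumbered siRNA gave the highest signal of the 9 arrays for this probe set, so the 2 EZH2 siRNAs lay on opposite sides of the control here, a difference that was not tested. The hybridisation controls set that array with those of replicate 1, which were above replicate 2 on this probe set in each numbered group. With that array set as a block, added after the data were seen, 1 of 7 TIMP probe sets was positive for the unnumbered siRNA, against 3 without it. Whether the array set bears on the opposite sides was not tested. The unnumbered siRNA lay between the control arrays on 201147_s_at (126 against 206 and 123) and 201148_s_at (148 against 298 and 132). On 201149_s_at it was above both, at 293 against 290.5 and 243.5.

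DMSO was lower than the control siRNA for TIMP3 as well, without overlap on 2 probe sets. Probe set 201149_s_at had 164 and 109 in DMSO, against 290.5 and 243.5 with the control siRNA (log2 -0.87, SE 0.33, limma adjusted p = 1.00), and this difference was -0.74 and -0.999 by replicate number. Probe set 201147_s_at had 114 and 82.3 in DMSO, against 206 and 123 with the control siRNA (log2 -0.60, SE 0.38). TSA against DMSO gave overlapping groups on all 4 TIMP3 probe sets. Replicate 2 was below replicate 1 in each of the 4 groups on 3 of them, by -0.54 to -0.46 on the log2 scale (limma adjusted p = 0.186 to 0.234), and probe set 201148_s_at was the exception.

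TIMP4, the fourth inhibitor, had 1 array far below the others. Its signals were 148 and 264 (replicates 1 and 2) with EZH2 siRNA no.2 and 228 with the unnumbered siRNA, against 164 and 28.3 with the control siRNA. In TSA they were 178 and 246, against 113 and 143 in DMSO. The control siRNA replicate 2 array was thus the lowest of the 9, on the same array where MMP1 lacked the high signal of the other replicate 2 arrays. The fit gave 1.15 for siRNA no.2 (SE 0.52, limma adjusted p = 0.920), though the groups overlapped, with -0.13 within replicate 1 and 2.44 within replicate 2. Without control siRNA replicate 2 it was 0.24. Both TSA arrays lay above both DMSO arrays, by 0.62 on the log2 scale (SE 0.52, limma adjusted p = 1.00), and by 0.56 and 0.69 by replicate number. With siRNA no.2, in TSA and in DMSO replicate 2 was the higher one. With the control siRNA replicate 2 minus replicate 1 was -1.83 on the log2 scale, and 29 of 13665 tested probe sets, TIMP4 included, were as low there.

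**Figure D2:**
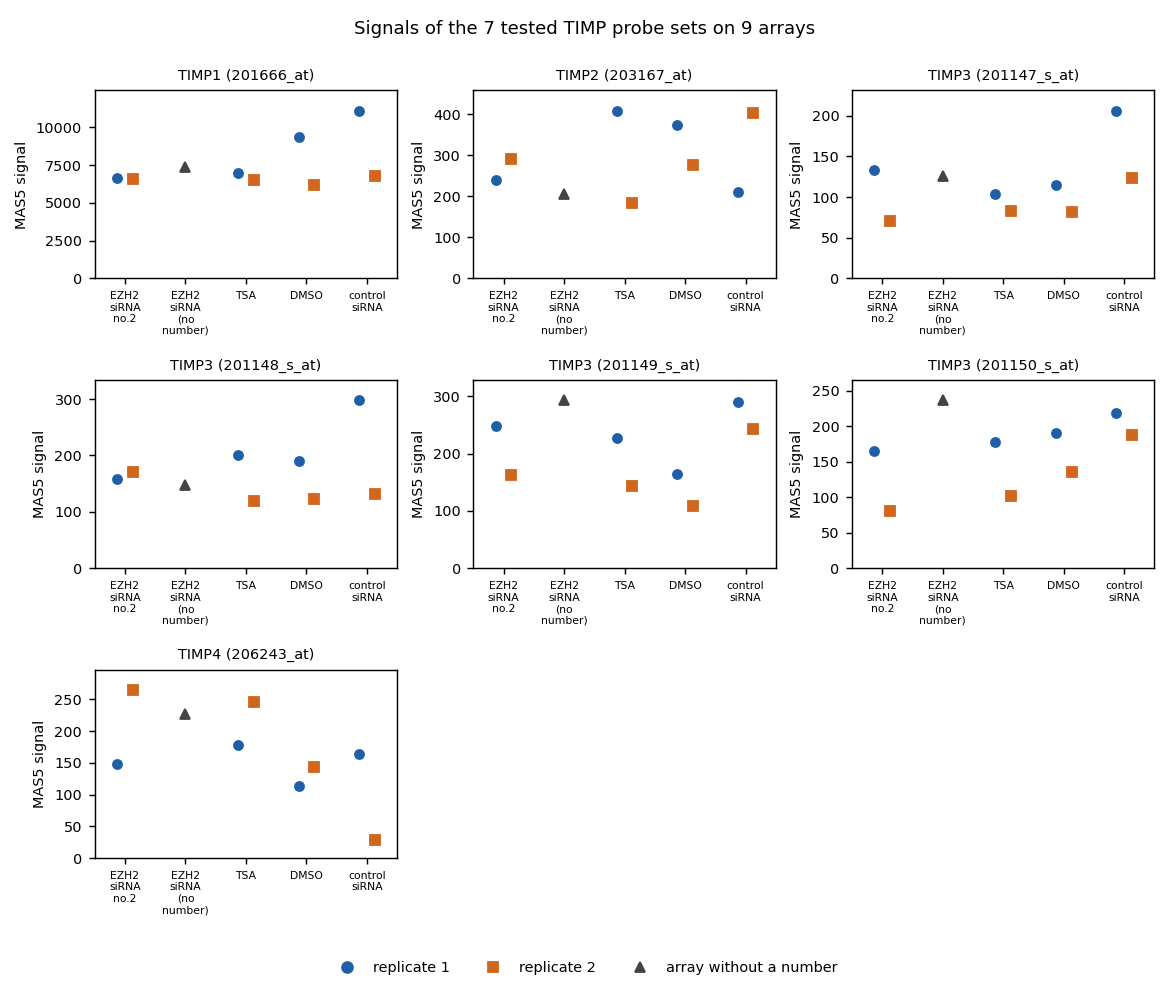
MAS5 signal (linear axis from 0) of the 7 tested TIMP probe sets on each of the 9 arrays, by group, with circles for replicate 1, squares for replicate 2 and a triangle for the array without a number. TIMP4 stands at 28.3 on the control siRNA array of replicate 2, and TIMP1 lies between 6194 and 11104.

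Across the family, 0 of the 17 tested probe sets passed limma at an adjusted p under 0.05 with EZH2 siRNA no.2, and 0% of the 13665 tested did so. At an unadjusted limma p under 0.05 there was 1 member higher (TIMP4), where 3.56% of all tested probe sets were, and 1 lower (MMP14 202827_s_at), where 1.71% were. Groups did not overlap for 4 members higher (MMP1, MMP3 and 2 probe sets of MMP14), where 22.4% of all tested probe sets were, and for 5 lower (2 of MMP14 and 1 each of MMP16, TIMP1 and TIMP3), where 12.8% were. The median log2 difference of the 17 was -0.14 (7 positive), against 0.07 for all tested probe sets. It was 0.33 over the 10 MMP probe sets, 6 of them positive, and -0.36 over the 7 of the TIMPs, where TIMP4 was the positive one. MMP14 and TIMP3 each give 4 probe sets to these medians, and probe sets of 1 gene are not independent. With 1 probe set per gene the median of the members turned to 0.12, against 0.08 for all tested. The MMP and TIMP medians were then 0.41 and -0.25. Without control siRNA replicate 1 the MMP median was 0.05, with 5 of 10 positive and 0.02 for all tested probe sets, and it was 0.14 without siRNA no.2 replicate 2 and 0.50 without control siRNA replicate 2. The TIMP median was -0.75 to -0.25 when 1 of the 4 arrays was left out, with 2 of 7 positive without either control array. The 7 members not named with a value for this comparison had log2 differences from -0.59 to 0.35.

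For the unnumbered EZH2 siRNA, with 1 array, the fit again passed 0 of 17, as of all tested probe sets (0%). Of the members, 1 was higher at an unadjusted limma p under 0.05 (MMP3, where 2.81% of all were) and 0 were lower (2.2%). The 15 members other than MMP1 and MMP3 had log2 differences from -0.46 to 1.33, the highest being TIMP4, set against the control group that holds its low array. The 17 had a median of 0.20, against 0.07 for all tested. With the array set that the hybridisation controls show as a block, added after the data were seen, it was -0.04, against 0.08 for all tested, and 1 of 7 TIMP probe sets was positive. The single array lay above both control arrays for 9 members (39.2% of all tested) and below both for 1 (27.9%), TIMP2. Both EZH2 siRNA comparisons share the control siRNA arrays.

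TSA against DMSO likewise gave 0 of 17 past the adjusted threshold (0% of all tested). The 10 MMP probe sets all had a positive log2 difference, with a median of 0.38, against 0.04 for all tested probe sets, of which 7560 of 13665 were positive, and 3 of the 7 TIMP probe sets were positive (median -0.05). The 10 positive MMP values were also found after quantile normalization and with a common median for all arrays. They rested on single arrays, since 7 of 10 were positive without TSA replicate 1, 8 without TSA replicate 2 and 6 without DMSO replicate 1. The TIMP values did so too, with 7 of 7 positive (median 0.13) without DMSO replicate 1 and 6 of 7 (median 0.33) without TSA replicate 2. With 1 probe set per gene 6 of 6 MMPs were positive (median 0.37) and 2 of 4 TIMPs (median 0.10). Groups did not overlap for 4 members higher (2 probe sets of MMP14, MMP16 and TIMP4), where 16.1% of all tested were, and for 0 lower (12.1%). At an unadjusted limma p under 0.05 there was 1 higher (1.24% of all), MMP14 217279_x_at, and 0 lower (1.17%).

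The 2 control groups, which differ in time and transfection, were compared as well. DMSO against the control siRNA gave 0 of 17 past the adjusted threshold (0% of all tested), 0 members higher without overlap (19.4% of all) and 3 lower (14.5%), namely MMP14 217279_x_at and 2 probe sets of TIMP3. By unadjusted limma p under 0.05, 0 members were higher (2.93% of all) and 1 was lower (1.33%). The median of the 17 was -0.13, against 0.03 for all tested. The 95% intervals of the 17 differences reached 0.61 to 2.16 on the log2 scale to each side with 2 arrays a group, widest for MMP1. In simulated data 7% of 2-fold changes were recovered for siRNA no.2 against the control siRNA, so most changes of that size would not be detected here. The simulation held larger changes too and no replicate split, so even this share can be too high. Its spreads were shuffled over the probe sets, so the share does not apply to low signals in particular.

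**Figure D3:**
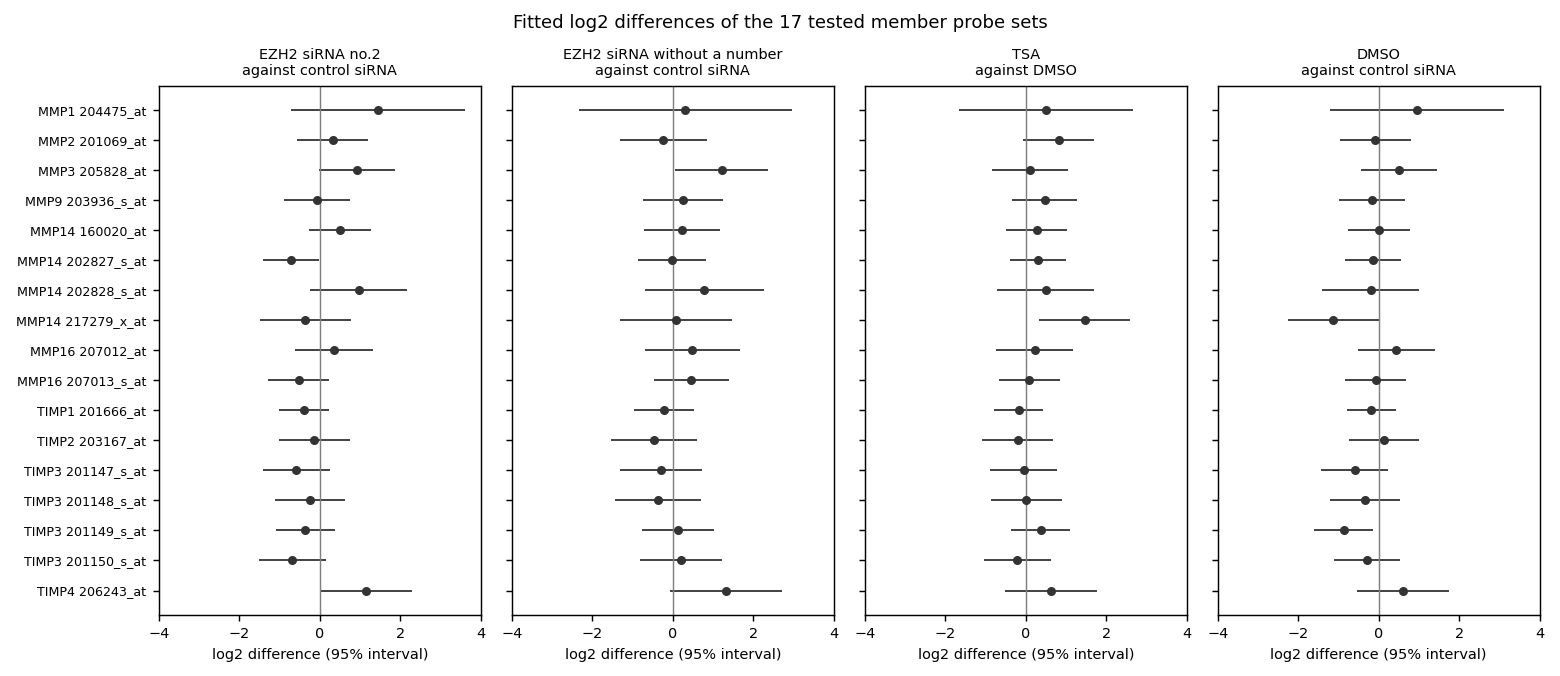
Fitted log2 differences (points) with 95% intervals from limma (bars) for the 17 tested member probe sets in 4 comparisons, where positive values mean higher in the group named first. Intervals are widest for MMP1, which reads 1.45 for EZH2 siRNA no.2 against the control siRNA.

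Set by replicate number instead, 3 of the 17 members were above replicate 1 in replicate 2 in each of the 4 numbered groups (MMP1, MMP3 and MMP16 207012_at), where 15.3% of all tested probe sets were. For MMP1 this was by 0.01 on the log2 scale with the control siRNA, and for MMP16 207012_at by 0.0081 in TSA. Another 6 were below in each (MMP9, MMP14 202828_s_at, TIMP1 and 3 probe sets of TIMP3), where 10.9% were. The 3 TIMP3 probe sets read the same transcripts and are not independent. MMP9 had a replicate difference of -0.59 (SE 0.18, limma adjusted p = 0.130) and MMP14 202828_s_at of -0.89 (SE 0.27, limma adjusted p = 0.126).

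**Figure D4:**
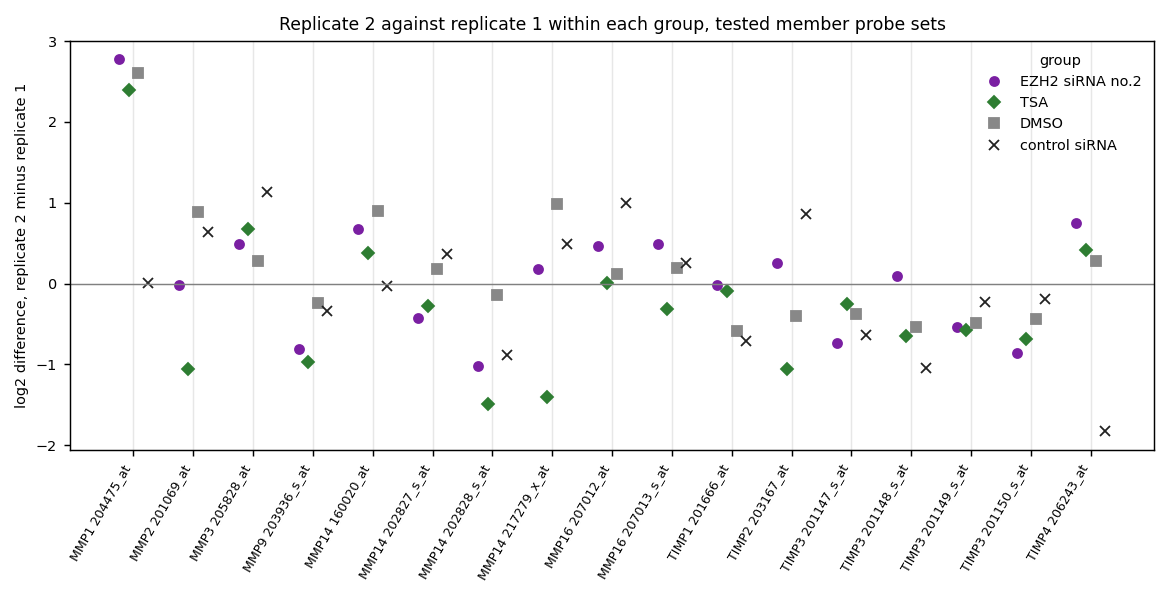
Log2 difference of replicate 2 minus replicate 1 (vertical axis) within each of the 4 numbered groups (symbols) for the 17 tested member probe sets. MMP1 lies between 2.40 and 2.78 in EZH2 siRNA no.2, TSA and DMSO and at 0.01 in the control siRNA, and TIMP4 lies at -1.83 in the control siRNA.

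Other genes of pericellular proteolysis were read from 5 lists. None of their tested probe sets passed the adjusted limma threshold in the 4 comparisons, namely 0 of 11 for the other MMPs, 0 of 18 for ADAM and ADAMTS proteases, 0 of 7 for the plasminogen system, 0 of 16 for MMP regulators and relatives and 0 of 22 for AP-1 and ETS factors. With EZH2 siRNA no.2 the list medians were 0.33, 0.18, 0.35, 0.11 and 0.30 on the log2 scale in that order, against 0.07 for all tested. With the unnumbered siRNA they were 0.05, 0.20, -0.16, 0.24 and 0.13, against 0.07, and 1 of the 7 probe sets of the plasminogen system was positive. In TSA they were 0.10, 0.06, 0.39, 0.15 and 0.12, against 0.04. In each list the 2 probe sets of smallest limma p are named here as not past the threshold. Of these 40 values, 23 were of genes with several tested probe sets, and for 15 of the 23 all probe sets of the gene lay on the same side of 0.

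JUN, a subunit of AP-1, was read by 3 tested probe sets, and 1 of them, 201464_x_at, stood higher with both EZH2 siRNAs and with TSA. Its signals were 486 and 534 with EZH2 siRNA no.2 and 560.0 with the unnumbered siRNA, against 331 and 227 with the control siRNA (log2 0.83, SE 0.30, limma adjusted p = 0.920, and 0.97, SE 0.37, limma adjusted p = 0.952). In TSA it had 270.4 and 388, against 138 and 195.5 in DMSO (log2 0.88, SE 0.30, limma adjusted p = 1.00). These groups did not overlap on 201464_x_at, and DMSO was itself below the control siRNA, with a log2 difference of -0.66. The other 2 JUN probe sets had positive differences for siRNA no.2 (0.72 and 0.27) and TSA (0.57 and 0.54), while the unnumbered siRNA gave 0.19 for 201466_s_at, between the control arrays, and -0.18 for 213281_at, below both. JUND, a second AP-1 subunit, gave 0.68 with siRNA no.2 on 203751_x_at, and its other 2 probe sets gave 0.05 and 0.39. The ETS factor ETV1 gave 1.04 with the unnumbered siRNA and 0.60 in TSA on 221911_at. Of its 5 tested probe sets 3 were positive in either comparison, and with the unnumbered siRNA 206501_x_at (-0.30) and 217053_x_at (-0.44) lay below both control arrays. FLI1 probe set 211825_s_at was lower in DMSO than with the control siRNA, at 332 and 376 against 764 and 778 (log2 -1.07, SE 0.29, limma adjusted p = 1.00), and its other 2 probe sets gave -0.47 and -0.53.

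SERPINE2, an inhibitor of thrombin and urokinase, had signals of 7036 and 11476 with EZH2 siRNA no.2 and 7192 with the unnumbered siRNA, against 5738 and 5117 with the control siRNA (log2 0.73 for siRNA no.2, SE 0.26, limma adjusted p = 0.920, and 0.41 for the unnumbered siRNA). In TSA it had 6695 and 7777, against 5088 and 5917 in DMSO (log2 0.39, SE 0.26). All 5 treated arrays thus lay above the 4 control arrays, and how many of all tested probe sets did so was not counted. SERPINE2 is named for having the smallest limma p of its list in each of these comparisons. Of all tested probe sets, 22.4% (siRNA no.2), 39.2% (unnumbered siRNA) and 16.1% (TSA) were higher without overlap. For PLAT, the tissue plasminogen activator, siRNA no.2 gave 0.48, and for PLAUR, the urokinase receptor, the unnumbered siRNA gave -0.42 on 210845_s_at and DMSO against the control siRNA -0.62 on 214866_at. All 3 tested PLAUR probe sets were negative in both comparisons. PLAU, urokinase, gave 0.54 in TSA and -0.42 in DMSO against the control siRNA on 205479_s_at, where its other probe set, 211668_s_at, gave -0.12 and -0.013.

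Of the other MMPs, MMP10 gave 0.82 (SE 0.36, limma adjusted p = 0.920) and MMP8 0.86 (SE 0.50) with siRNA no.2. The unnumbered siRNA gave -0.83 for MMP11, stromelysin-3, on 203878_s_at and 0.53 on its other probe set, 203876_s_at, so MMP11 has no direction there. It gave 0.70 for MMP27, and TSA gave 0.62 for MMP27 and -0.77 for MMP8. DMSO against the control siRNA gave -0.50 for MMP7, matrilysin, and 0.49 for MMP25 on 207289_at (0.04 on its other probe set). ADAM22, a member without protease activity, was low on 208227_x_at wherever the control siRNA was the comparator, at -1.52 with siRNA no.2, -1.46 with the unnumbered siRNA and -1.36 in DMSO, and these 3 comparisons share the control arrays. Its probe sets 208237_x_at and 213411_at did not show this, with log2 differences from -0.35 to 0.21 in the same comparisons. ADAM19 gave 0.61 and 0.78 with siRNA no.2 and the unnumbered siRNA on 221128_at and 0.19 with either on its other probe set. ADAM23 gave 0.85 and ADAM12 -0.76 in TSA, and ADAM15 0.84 in DMSO against the control siRNA. Among the regulators and relatives, siRNA no.2 gave -0.60 for CTSK, cathepsin K, and 0.55 for CTSB, cathepsin B, on 213275_x_at. The unnumbered siRNA gave 0.96 for THBS1, a thrombospondin, on 201108_s_at (0.28 on its other probe set) and 0.53 for CTSB on 200838_at. In TSA, THBS2 gave 1.02 (83.3 ± 22.5 against 29.1 ± 16.3 in DMSO, SD, n = 2 each) and SPOCK1 0.71, and DMSO against the control siRNA gave 0.81 for CTSB on 213275_x_at and -0.81 for THBS2. All 4 tested CTSB probe sets were positive in these 3 comparisons.

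Patterns across the 9 arrays were likened by Pearson's correlation of log2 values over 13665 probe sets, as a description with no test, since such values also carry scaling and the replicate split. For TIMP1, the member of highest mean signal, the nearest genes were ADPRM (r = 0.940), RPN2 (r = 0.926) and IKZF4 (r = 0.920). For MMP14 217279_x_at, which had the widest range of group means, they were EFNB1 (r = 0.941), SMAD4 (r = 0.930) and HCFC2 (r = 0.922). For MMP1, added after its values were seen, they were NT5DC3 (r = 0.977), AFG3L2 (r = 0.970) and IQCK (r = 0.964). IQCK had signals of 289, 228 and 261 on the replicate 2 arrays of siRNA no.2, TSA and DMSO, and 102 to 143 on the other 6.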

How the data were processed

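RNA of A673 cells was measured on 9 U133A arrays. The authors' deposited intensity table holds MAS5 signals, per the submitters' processing notes. The MAS5 version and any scaling are not given in the sources used here, and no detection calls were at hand.

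Tests ran on log2(signal + 25.1), the pseudocount being the 20th percentile of all values. Probe sets annotated with 1 gene (19065 of 22283, with 68 controls, 1043 naming several genes and 2107 naming none) and with a mean signal of at least the 30th percentile (53.3) were tested, 13665 in all. One model of the 5 group means covered the 9 arrays (limma 3.58.1, R 4.3.3; lmFit and eBayes with trend, 4 residual and 7.01 prior degrees of freedom). Tests were two-sided with Benjamini-Hochberg adjustment over all tested probe sets and a threshold of 0.05. The array of the unnumbered siRNA borrowed its spread from the groups with 2 arrays. No exact permutation test was run, because 2 arrays against 2 allow no p under 0.333.

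The titles call replicates biological, but nothing says that they were separate cultures, so p-values measure the spread between these samples. The number of arrays limits the precision. In data simulated for EZH2 siRNA no.2 against the control siRNA (13665 probe sets, 200 changed, 10 simulations) recovery was 7% at 2-fold, 66% at 4-fold and 84.8% at 8-fold. The changes were 2-, 4-, 8- and 16-fold alike in number, and noise was drawn independently with no replicate split. The spreads of the probe sets were shuffled among them, which removes any link between signal and spread. On the arrays 0 probe sets passed in this comparison, so these rates can be too high for it.

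Members and lists were chosen with earlier results of these data known. Every member probe set was named. Each other list gave the probe sets past the threshold or else the 2 of smallest limma p, and likeness was taken for the member of highest mean signal and that of the widest range of group means. A log2 difference is given for MMP1 and for members with an unadjusted p under 0.05 or, with 2 arrays a group, no overlap. Alternatives were pseudocounts at the 5th and 40th percentiles, no filter or one at the 50th percentile, 1 probe set per gene, quantile normalization, a common median, eBayes without trend, only the groups compared, a replicate block, the 3 EZH2 siRNA arrays as 1 group and each array left out. A block for the array set that the hybridisation controls show, and the comparison by replicate number, were added after the data were seen.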

Additional observations from a re-analysis of the deposited data

How the results depend on the processing

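In the 5 treatment comparisons 0 members passed the adjusted threshold in any of the 20 other settings, with a lowest adjusted p of 0.495 for a member. Over all probe sets 0 passed in each of them, save 1 for the unnumbered siRNA when only the groups of the comparison were fitted. Of the 24 member log2 differences tracked over these settings, 21 kept their direction. The exceptions, all MMP1, turned when 1 array was left out, with ranges of -0.80 to 1.81 for TSA against DMSO, -0.35 to 2.25 for DMSO against the control siRNA and -0.44 to 2.34 for the siRNA no.2 effect minus the TSA effect. Apart from MMP1, most of the 24 were tracked because their groups did not overlap. Such a difference cannot turn when 1 array is left out, so its kept direction is no support. Members that were not tracked did turn. For TSA against DMSO 10 of 10 MMP probe sets were positive in the main fit and 6 without DMSO replicate 1. Leaving out 1 array gave PLAT -0.19 to 1.15 with siRNA no.2, PLAUR -1.13 to 0.28 with the unnumbered siRNA, PLAUR -1.50 to 0.26 in DMSO against the control siRNA and PLAU -0.83 to 0.0028 there. With the array set as a block, added after the data were seen, PLAUR gave 0.0076 with the unnumbered siRNA. With a common median for all arrays, the median log2 difference of all tested probe sets was -0.06 for siRNA no.2, against 0.07 on the deposited scale, and -0.03 for the unnumbered siRNA, against 0.07. The MMP and TIMP medians for siRNA no.2 were then 0.23 and -0.50. The comparison by replicate number passed 199 probe sets, 129 with a pseudocount at the 5th percentile, 0 with no filter and 300 with a common median, and 2 to 160 when 1 array was left out. MMP1 was the member called there, with 0 called with no filter and 0 to 1 when 1 array was left out. The replicate block (the array without a number left out) raised the members at an unadjusted limma p under 0.05 to 6, against 2 without it, for siRNA no.2, where 8.65% of all tested probe sets were so, against 5.27% without it, and passed 0 at the adjusted threshold. Same-numbered arrays deviated together with r = 0.0981 to 0.409 over the 6 pairs of groups, the lowest for TSA with the control siRNA. The main fit had no term for the number, so its standard errors hold any variation that same-numbered arrays share. The replicate block is the fit with such a term. The cause of these dependences was not tested, and a left-out array leaves its group with 1, assumed to vary like the others.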
